A study of Arabidopsis thaliana with 20 samples.

Results

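The expansin superfamily was followed down the growing inflorescence stem of Arabidopsis thaliana through 5 of its genes. They were the alpha-expansins EXPA8 (AT2G40610) and EXPA15 (AT2G03090), the beta-expansin EXPB1 (AT2G20750) and the expansin-like A genes EXLA1 (AT3G45970) and EXLA2 (AT4G38400). Members were taken by name with earlier results of these data known, 5 of the 7871 genes with a tested single-gene probe. The shares of all probes given beside the members' counts are therefore a description and not a test of the members. Each of the 5 genes was represented by 1 array probe that the platform annotation assigned to that gene alone. The 5 probes stood among 25720 tested probes, of which 8174 had 1 annotated gene, and all 5 had a value on each of the 20 arrays. The annotation placed 11 genes of the family on tested single-gene probes, and the other 6 are described after the members.

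Expansins are small secreted wall proteins that let the primary wall of a plant cell slip and extend under turgor, most actively at acid pH, without cutting its polysaccharides. Alpha-expansins act where cellulose meets the surrounding matrix, and beta-expansins are best known from the pollen of grasses, where they loosen the xylan-rich wall. Expansin-like A proteins have the same pair of domains, but a wall-loosening activity has not been established for them. In an inflorescence stem, cells divide and elongate near the tip, while tissue towards the base stops growing and builds secondary walls.

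All plants were of the Ler accession and were grown for 8 weeks in short days of 8 h light before a move to long days of 16 h light. Stems about 10 cm long, cut on day 14 of the long days, gave the sections 0-3, 3-5, 5-7 and 7-9 cm, counted from the tip. Stems about 5 cm long, cut on day 12, gave the section 2-4 cm and the section 0-2 cm, which was the shared reference on every array. Sections were freed of flowers, fruits, leaves and side shoots, and each of the 5 sections was set against the reference on 4 arrays of 2 colours. All samples were of the same accession, and the labels give no treatment other than the change of day length. Stem length goes with harvest day, so the length of a stem and its age cannot be told apart. Whether the 4 arrays of a section hold RNA of separate plants is not given in the labels, and the tests therefore weigh differences against array-to-array spread that may be technical.

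Each value below is a log2 ratio of a section over the 0-2 cm reference, or a difference between such ratios. The base of the deposited logarithm is not stated and was taken as 2, on which the folds depend and the tests do not. A positive ratio means more signal in the section than in the uppermost 2 cm of 5 cm stems. A ratio carries no level, so the genes cannot be ranked by abundance, and spot intensities were not used here, so the distance from background is unknown. In a tissue section, fewer cells that express a gene and less RNA per cell cannot be told apart. Tests are limma's moderated tests with Benjamini-Hochberg adjustment over all 25720 probes of a comparison, and "higher", "lower", "rose" and "fell" are used at an adjusted p below 0.05. Tests against the reference leave out the reference's own spread.

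The 0-3 cm arrays stood apart from the rest. Across all probes they correlated with each other from -0.211 to 0.551, and the medians of their spot blocks had an SD of 0.080 to 0.360, against 0.038 to 0.078 on the other 16 arrays. The lowest correlation was that of replicates 1 and 3, so results that rest on this section are also given without those arrays, a choice made after seeing the data. The scanner's photomultipliers (Cy3 and Cy5 channel) stood at 62 and 59 on every 2-4 cm array but at 62 and 61 on every 3-5 cm array, and for these sections setting and section cannot be told apart. All 0-3 cm arrays shared settings 62 and 60 with replicates 1 and 2 of the sections below 5 cm, whose replicates 3 and 4 were scanned at 63 and 60. Fits within a setting thus hold 2 arrays of each lower section. Passes and misses in them rest on few arrays and few residual degrees of freedom. Laser power was 95% for 0-3 cm replicate 2 and 90% for every other array, and its part was not tested.

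EXPA8 was high in the upper stem and dropped steeply below 5 cm. In the 3-5 cm section its log2 ratios were 2.16, 2.12, 1.88 and 2.19 on replicates 1 to 4. In the 5-7 cm section they were -2.68, -2.0, -1.41 and -1.19. Every array of the upper section was above the reference and every array of the lower section was below it, so the groups lay far apart. The difference between these neighbouring sections was -3.90 ± 0.321 (SE; 95% interval -4.57 to -3.24), a 15.0-fold fall with an adjusted p of 4.49e-07. Counting EXPA8 itself, 3 of the 25720 probes had a difference this low or lower.

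**Figure D1:**
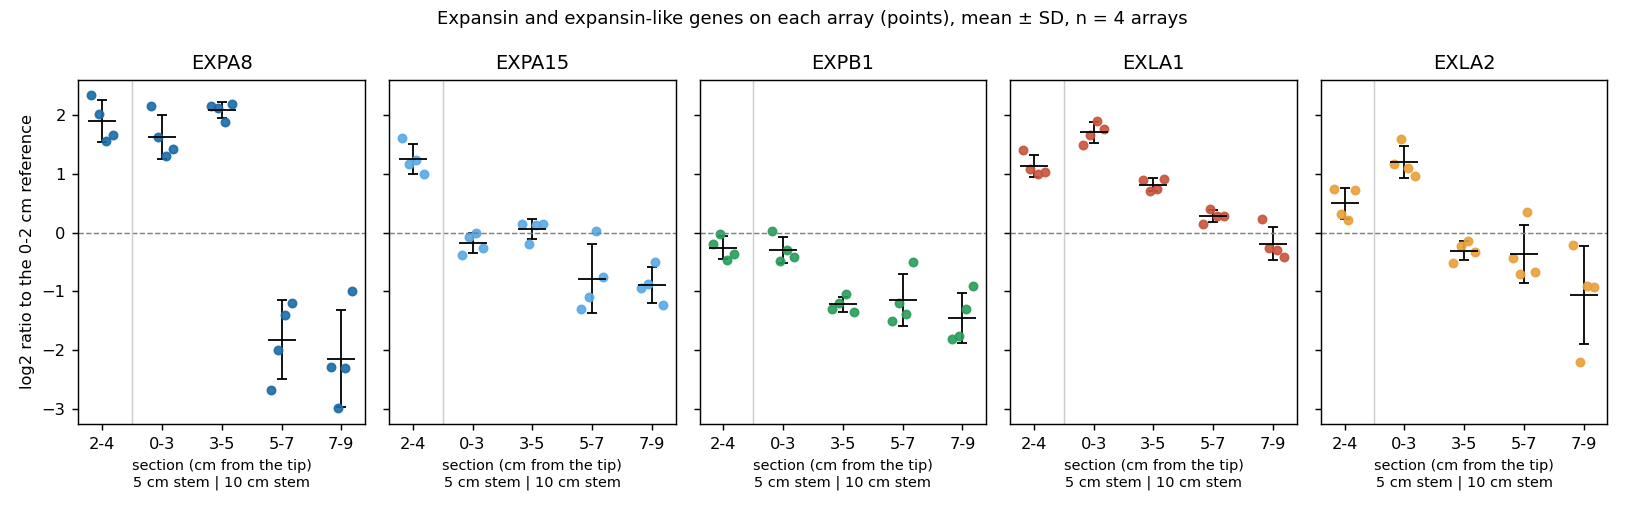
Log2 ratios to the 0-2 cm reference (vertical axis) of the 5 genes in the 5 stem sections (horizontal axis, cm from the tip), with a point for each array and the mean ± SD of 4 arrays in black. EXPA8 lies between 1.3 and 2.33 in the 3 upper sections and between -2.99 and -0.996 in the 2 lower ones, and no other gene shows a gap of that size.

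Above the drop, EXPA8 was higher than in the reference in every section. Its ratios in the 0-3 cm section were 2.15, 1.63, 1.3 and 1.42, with a mean of 1.63 ± 0.376 (SD, n = 4) and a limma adjusted p of 0.000151. In the 2-4 cm section of the shorter stems they were 2.33, 2.03, 1.55 and 1.66, with a mean of 1.89 ± 0.355 (SD, n = 4), or 2.51 for EXPA8 with arrays centred and scaled to a common spread. The array ranges of both sections overlapped with each other and with that of 3-5 cm. The 3-5 cm section exceeded 0-3 cm by 0.46 (95% interval -0.21 to 1.13, limma adjusted p = 0.371) and 2-4 cm by 0.19 (-0.48 to 0.86, adjusted p = 0.783). Neither difference passed the test, and both changed sign under that scaling, to -0.19 and -0.58.

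Below the drop, EXPA8 stayed low to the base. The ratios in the 7-9 cm section were -2.28, -2.99, -2.30 and -0.996, with a mean of -2.14 ± 0.831 (SD, n = 4), a 4.41-fold reduction against the reference. Replicate 4 was the highest array there, and all 4 arrays were below 0. From 3-5 to 7-9 cm the difference came to -4.23 ± 0.321 (SE), or 18.7-fold (limma adjusted p = 4.83e-08). The step from 5-7 to 7-9 cm was -0.32 (95% interval -0.99 to 0.35, limma adjusted p = 1.00), within the spread of the arrays. Array spread was wide for this gene: the residual SD of the EXPA8 probe was 0.501, against a median of 0.350 over all probes.

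The lower sections gave less extreme EXPA8 ratios on the arrays scanned at 63 and 60. Within settings 62 and 60 the EXPA8 mean was -2.34 in 5-7 cm and -2.64 in 7-9 cm. Within settings 63 and 60 these means were -1.30 and -1.65. All 4 values were below the reference by limma at adjusted p-values of 3.60e-05, 1.35e-05, 0.0211 and 0.00897. The part of the setting in this spread was not tested beyond these values. The comparison with 3-5 cm has no value within a setting, since that section alone was scanned at 62 and 61.

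EXPA15, the other alpha-expansin, was higher in the 2-4 cm section of 5 cm stems and in no other section. Its log2 ratios there were 1.61, 1.17, 1.23 and 1.00, with a mean of 1.25 ± 0.260 (SD, n = 4). That was a 2.38-fold excess over the reference, the uppermost 2 cm of 5 cm stems (limma adjusted p = 3.88e-05). In the 0-3 cm section of 10 cm stems the ratios were -0.37, -0.08, 0.00 and -0.26, and in 3-5 cm they were 0.14, -0.20, 0.14 and 0.15. All arrays of the 2-4 cm section lay above all arrays of these 2 sections. The 2-4 cm section exceeded 0-3 cm by 1.43 ± 0.239 (SE; limma adjusted p = 0.0076) and 3-5 cm by 1.19 ± 0.239 (adjusted p = 0.00252, tested as -1.19 for 3-5 over 2-4 cm).

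In the lower sections of 10 cm stems EXPA15 was below the reference, by less than EXPA8. Its ratios in 5-7 cm were -1.30, -1.10, 0.02 and -0.75, and in 7-9 cm they were -0.94, -0.87, -0.50 and -1.24. Replicate 3 of 5-7 cm was at the level of the reference while the other arrays were below it. The means were -0.78 ± 0.584 and -0.89 ± 0.303 (SD, n = 4), with limma adjusted p-values of 0.00079 and 0.000206. Within settings 63 and 60 the EXPA15 mean of 5-7 cm was -0.36 and did not pass the test (adjusted p = 0.188), against -1.20 within 62 and 60. In 7-9 cm the EXPA15 means were -0.87 and -0.90 within these settings, both lower than the reference (adjusted p = 0.0202 and 0.00739).

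The steps of EXPA15 within the 10 cm stem were small and close to the threshold. The fall from 3-5 to 5-7 cm was -0.84 ± 0.239 (SE) with a limma adjusted p of 0.039. It missed the threshold in 14 of 37 alternatives, among them the removal of any single 3-5 cm array or of 5-7 cm replicate 1, 2 or 4, with adjusted p-values from 0.0506 to 0.129. The fall from 0-3 to 7-9 cm was -0.71 (adjusted p = 0.0376) and missed the threshold in 12 of 38 alternatives, with adjusted p-values from 0.0525 to 0.261. From 3-5 to 7-9 cm the value was -0.95 (adjusted p = 0.0152), and it missed the threshold in 3 of 37 alternatives. These were the removal of 7-9 cm replicate 4 (-0.84, adjusted p = 0.0577), centring and scaling (-0.78, adjusted p = 0.0771) and the removal of the 3 arrays of conflicting dye labels (-0.82, adjusted p = 0.144). Against the 2-4 cm section, 5-7 and 7-9 cm were lower by larger amounts, -2.04 and -2.14 (limma adjusted p = 6.44e-06 and 2.11e-06).

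EXPB1, the beta-expansin, was lower from 3 cm downwards and showed no higher section. In 0-3 cm its log2 ratios were 0.02, -0.48, -0.30 and -0.41, and in 2-4 cm they were -0.20, -0.02, -0.46 and -0.36. The means of -0.29 and -0.26 did not pass the test against the reference (limma adjusted p = 0.345 and 0.307). In 3-5 cm the ratios were -1.29, -1.20, -1.04 and -1.34, below every array of the sections nearer the tip.

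Further down, EXPB1 stayed near that ratio. Its arrays in 5-7 cm gave -1.49, -1.20, -1.38 and -0.50, and those in 7-9 cm gave -1.81, -1.76, -1.30 and -0.91. The means of 3-5, 5-7 and 7-9 cm were -1.22, -1.14 and -1.45, each lower than the reference (limma adjusted p at most 3.91e-06) and 2.33-, 2.21- and 2.72-fold below it. The 3 lower ranges overlapped, and their differences lay between -0.30 and 0.08. Within settings 62 and 60 the EXPB1 means of 5-7 and 7-9 cm were -1.35 and -1.79, and within 63 and 60 they were -0.94 and -1.10, all lower than the reference (limma adjusted p at most 0.0258). The step of EXPB1 from 0-3 to 3-5 cm was -0.93 ± 0.217 (SE; limma adjusted p = 0.00509), and from 2-4 to 3-5 cm it was -0.96 (adjusted p = 0.00628). The latter became -0.78 (adjusted p = 0.0519) with arrays scaled to a common spread.

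EXLA1 declined from section to section and had the tightest replicates of the 5 genes. Its log2 ratios were 1.49, 1.66, 1.90 and 1.77 in 0-3 cm, then 0.90, 0.70, 0.74 and 0.92 in 3-5 cm. They were 0.15, 0.40, 0.28 and 0.28 in 5-7 cm, then 0.23, -0.26, -0.30 and -0.42 in 7-9 cm. The arrays of 0-3, 3-5 and 5-7 cm formed 3 ranges that did not overlap, and the 7-9 cm range met that of 5-7 cm through replicate 1. The residual SD of the EXLA1 probe was 0.186, and 96.8% of all probes had a larger one.

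The means of EXLA1 in the 10 cm stem were 1.70, 0.81, 0.28 and -0.19 from the top section to the lowest. The top section was 3.26-fold above the reference (limma adjusted p = 3.93e-08), and 3-5 cm was 1.76-fold above it (adjusted p = 1.68e-05). The 5-7 and 7-9 cm means did not pass the test against the reference (adjusted p = 0.0813 and 0.236), nor did they within a scanner setting (0.27 and -0.02 at 62 and 60, 0.28 and -0.36 at 63 and 60). Over the whole stem, 7-9 cm lay -1.89 ± 0.175 (SE) below 0-3 cm, a 3.71-fold fall (adjusted p = 1.5e-07). The first step, from 0-3 to 3-5 cm, was -0.89 (adjusted p = 0.00128), and with arrays centred and scaled to a common spread the EXLA1 step was -1.52. The following steps of -0.54 and -0.47 did not pass over all probes (adjusted p = 0.0749 and 0.958), although their 95% intervals of -0.90 to -0.17 and -0.83 to -0.10 left out 0. In the 5 cm stem, EXLA1 gave 1.40, 1.09, 1.00 and 1.03 in 2-4 cm, a mean of 1.13 and 2.19-fold above the reference (adjusted p = 3.24e-06).

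EXLA2 had the same order of sections as EXLA1 at lower ratios and with wider spread. Its log2 ratios were 1.17, 1.59, 1.10 and 0.96 in 0-3 cm and 0.74, 0.32, 0.22 and 0.72 in 2-4 cm. They were -0.52, -0.23, -0.14 and -0.33 in 3-5 cm and -0.43, -0.70, 0.35 and -0.66 in 5-7 cm. In 7-9 cm they were -0.21, -2.21, -0.90 and -0.93. Only the top section lay clear of all others, since its lowest array was above the highest array of every other section. The 7-9 cm arrays were widely spread, with replicate 2 far below the rest.

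EXLA2 was higher than the reference in 0-3 cm, by 1.21 ± 0.211 (SE) or 2.31-fold (limma adjusted p = 0.00175), and lower in 7-9 cm, by -1.06 or 2.09-fold (adjusted p = 0.000309). Without 7-9 cm replicate 2 the lower value was -0.70 (adjusted p = 0.00755). With the 3 arrays of conflicting dye labels left out it was -0.58 (adjusted p = 0.108). Within settings 62 and 60 the EXLA2 mean of 7-9 cm was -1.21 (adjusted p = 0.0176), and within 63 and 60 it was -0.91 (adjusted p = 0.0383). From 0-3 to 3-5 cm EXLA2 fell by 1.51 on the log2 scale (adjusted p = 0.00132), and from 0-3 to 7-9 cm the difference was -2.27 ± 0.298 (SE), a 4.82-fold fall (adjusted p = 1.19e-05). Across the 20 arrays the EXLA1 and EXLA2 ratios had a Pearson correlation of 0.864, while the other 9 pairs of members ran from 0.496 to 0.796. These arrays share the reference and the sections, so the correlations describe the profiles only.

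**Figure D2:**
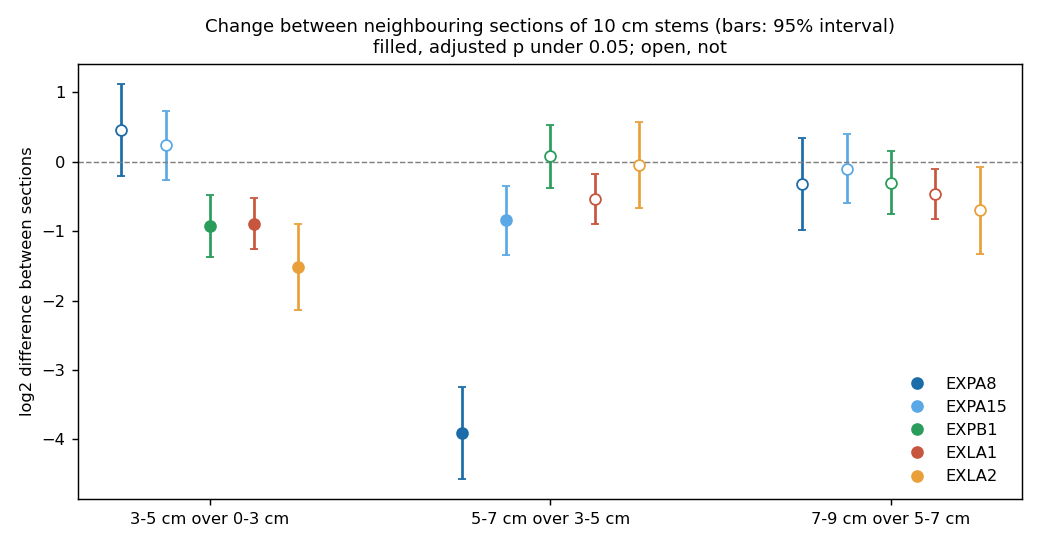
Log2 difference between neighbouring sections of 10 cm stems (vertical axis) for the 5 genes, with 95% intervals, filled where the adjusted p was below 0.05. EXPB1, EXLA1 and EXLA2 fell between 0-3 and 3-5 cm, EXPA8 and EXPA15 between 3-5 and 5-7 cm, and no gene passed the test between 5-7 and 7-9 cm.

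The neighbouring sections between which a member passed the test were not the same for all genes, although differences between genes were not themselves tested. Between 0-3 and 3-5 cm, 3 of the 5 members were lower and none was higher, against 8.35% of all probes that were lower. They were EXPB1, EXLA1 and EXLA2, at -0.93, -0.89 and -1.51, while EXPA8 and EXPA15 differed by 0.46 and 0.24 without passing the test. Between 3-5 and 5-7 cm the alpha-expansins EXPA8 and EXPA15 were the 2 members lower, against 3.47% of all probes. The EXPA15 call missed the threshold in 14 of 37 alternatives. EXLA1 differed there by -0.54 without passing the test (limma adjusted p = 0.0749), although its array ranges did not overlap. EXPB1 and EXLA2 differed there by 0.08 and -0.05. Between 5-7 and 7-9 cm limma called 0 of the 5 members and 0.00389% of all probes, 1 probe of 25720. At an unadjusted p below 0.05 it called 2 members, EXLA1 and EXLA2, and 4.71% of all probes.

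From the top to the lowest section of the 10 cm stem all 5 members were lower, against 10.3% of all probes. Of the other 6 measured genes of the family, which were not picked as members, 2 were lower there. The values were -3.77 for EXPA8, -2.27 for EXLA2, -1.89 for EXLA1, -1.15 for EXPB1 and -0.71 for EXPA15, with a median of -1.89 beside 0.01 over all probes. Between 0-3 and 5-7 cm, 4 of 5 were lower (8.83% of all probes), EXPA15 being the exception at -0.61 (adjusted p = 0.0852). The EXPB1 value of -0.85 missed the threshold in 3 of 38 alternatives, centring and scaling among them (limma adjusted p from 0.084 to 0.104). Within settings 62 and 60, EXPA8, EXPB1, EXLA1 and EXLA2 were lower than in 0-3 cm in both 5-7 and 7-9 cm (5-7 over 0-3 cm, -3.97, -1.05, -1.43 and -1.77). EXPA15 within these settings was lower in 5-7 cm, at -1.02, and missed the threshold in 7-9 cm. From 3-5 to 7-9 cm 3 were lower, EXPA8, EXPA15 and EXLA1, against 5.14% of all probes.

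The 2-4 cm section of 5 cm stems was also set against each section of the longer stems. EXPA15 was the 1 member higher in it than in 0-3 cm, against 0.144% of all probes. From 2-4 to 3-5 cm EXPA15 and EXPB1 were lower (2 of 5, against 5.45% of all probes), and EXLA2 at -0.80 was not past the test (adjusted p = 0.0893). From 2-4 to 5-7 cm 4 were lower (7.61% of all probes), EXLA2 being the exception at -0.86 (adjusted p = 0.0587), and from 2-4 to 7-9 cm all 5 were lower (9.41% of all probes). With arrays centred and scaled, the EXPB1 difference of 5-7 over 2-4 cm was -0.65 and missed the threshold (adjusted p = 0.0837). The last comparison gave -4.04 for EXPA8, -2.14 for EXPA15, -1.56 for EXLA2, -1.32 for EXLA1 and -1.19 for EXPB1.

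Against the 0-2 cm reference, the members' counts changed direction down the stem. In 0-3 cm EXPA8, EXLA1 and EXLA2 were higher (3 of 5, against 2.18% of all probes), and in 2-4 cm EXPA8, EXPA15 and EXLA1 were higher (3 of 5, against 6.63%). In 3-5 cm EXPA8 and EXLA1 were higher (19.9% of all probes) and EXPB1 was lower (20.2%). In 5-7 cm EXPA8, EXPA15 and EXPB1 were lower (3 of 5, against 20.2%). In 7-9 cm the same 3 genes and EXLA2 were lower (4 of 5, against 21.7%). No member was higher in either of these lower sections. The comparisons with the reference share that sample, and the comparisons between sections share arrays, so their counts are not independent.

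Results that involve the 0-3 cm section were recomputed without its replicates 1 and 3. EXPA8 and EXLA1 stayed above the reference there, at 1.53 (limma adjusted p = 0.0299) and 1.71 (3.26e-05). EXLA2 gave 1.28 and missed the threshold (adjusted p = 0.0521). The excess of EXPA15 in 2-4 over 0-3 cm was 1.42 and also missed it (adjusted p = 0.0954), as did the EXPB1 steps to 3-5 cm (-0.77, adjusted p = 0.073) and 5-7 cm (-0.69, adjusted p = 0.0973) and the EXPA15 fall to 7-9 cm (-0.72, adjusted p = 0.121). By default the EXPB1 steps to 3-5 and 5-7 cm were -0.93 and -0.85. The section was left with 2 arrays in this fit, and the part of that in the misses was not tested. With a term for settings 63 and 60 against 62 and 60, the 0-3 cm mean of EXPA8 became 2.13 and the member calls of all comparisons between sections held, with EXPA15 also lower in 5-7 than in 0-3 cm (-0.82, adjusted p = 0.0246). That term places the settings of 2-4 and 3-5 cm midway between the other settings, so comparisons of 0-3 cm with those sections depend on this choice.

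The step from the top section to the next was compared between stem lengths. In 5 cm stems the section below the top, 2-4 cm, was compared with the top 2 cm. In 10 cm stems 3-5 cm was compared with the top 3 cm, so the sections differ in position and width. For EXLA1 the step was 1.13 in 5 cm stems and -0.89 in 10 cm stems. For EXLA2 it was 0.50 (not past the test) and -1.51. The difference between stem lengths, 10 cm minus 5 cm, was -2.02 ± 0.214 (SE; limma adjusted p = 3.48e-05) for EXLA1 and -2.01 ± 0.365 (adjusted p = 0.00514) for EXLA2, and 2.43% of all probes passed this test in either direction. The reference is the top section of 5 cm stems in this difference, so its own spread is left out of the SE and the test.

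For the other members the test of this difference missed the threshold. EXPA8 stepped by 1.89 in 5 cm stems and 0.46 in 10 cm stems, a difference of -1.44 (limma adjusted p = 0.056). The EXPA8 difference passed in 11 of 37 alternatives and reached -2.70 with arrays centred and scaled (adjusted p = 0.000196). EXPA15 stepped by 1.25 and 0.24, a difference of -1.02 (adjusted p = 0.0722) that passed in 8 of 37 alternatives, at -1.42 with centring and scaling (adjusted p = 0.00751). EXPB1 stepped by -0.26 and -0.93, a difference of -0.67 (adjusted p = 0.215). The 5 differences had the same sign, but they share arrays and the reference, so their signs are not independent. The share of all probes with that sign is not given here. With the term for settings 63 and 60 against 62 and 60, the differences of EXPA8, EXPA15 and EXPB1 were -1.94, -1.23 and -0.94, and all passed (adjusted p = 0.000885, 0.0162 and 0.0269). That term does not cover the settings of 2-4 and 3-5 cm, each of which was used for 1 section alone. It places them midway between the other settings, which is a choice and not an estimate. In these differences it moved only the 0-3 cm mean (EXPB1 from -0.29 to -0.02), by an offset estimated in the sections below 5 cm. The differences under this term therefore depend on that placing.

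**Figure D3:**
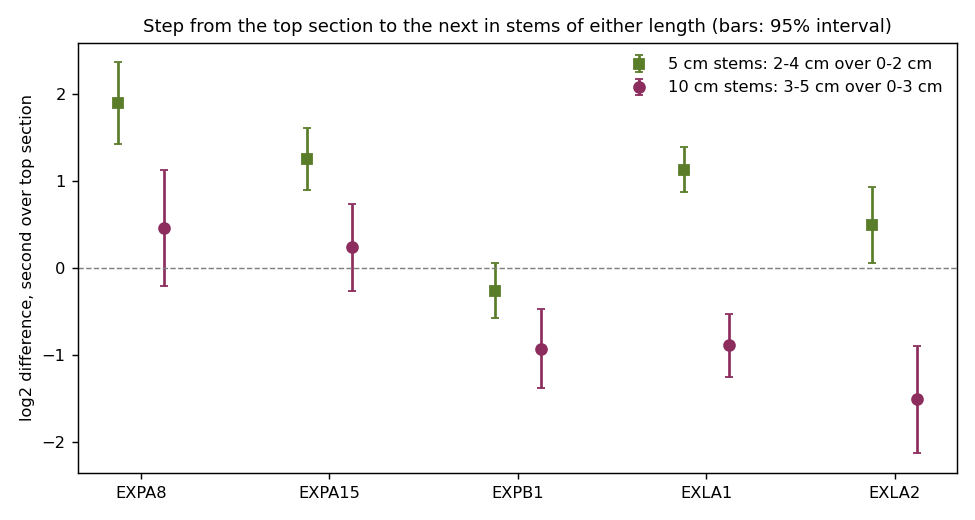
Log2 difference of the second over the top section (vertical axis) in 5 cm stems (squares, 2-4 over 0-2 cm) and 10 cm stems (circles, 3-5 over 0-3 cm) for the 5 genes, with 95% intervals. EXLA1 and EXLA2 lie above 0 in the shorter stems (EXLA2 not past the test) and below 0 in the longer ones, with intervals that do not meet.

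The sections were ordered by ratio for each gene, with the reference placed at 0. For EXPA8 the order was 3-5, 2-4 and 0-3 cm, then the reference, then 5-7 and 7-9 cm, and the neighbours that differed were 0-3 cm from the reference and the reference from 5-7 cm. For EXPA15 it was 2-4 and 3-5 cm, the reference, then 0-3, 5-7 and 7-9 cm, and only 2-4 and 3-5 cm differed as neighbours. For EXPB1 the reference came first, followed by 2-4, 0-3, 5-7, 3-5 and 7-9 cm, and only 0-3 and 5-7 cm differed as neighbours. EXLA1 ran 0-3, 2-4, 3-5, 5-7 cm, reference, 7-9 cm, and EXLA2 ran 0-3, 2-4 cm, reference, 3-5, 5-7, 7-9 cm. In both expansin-like genes no neighbours in the order differed by the test, so their decline rests on sections farther apart.

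The span between a gene's highest and lowest section mean was 4.23 for EXPA8, 2.27 for EXLA2, 2.14 for EXPA15, 1.89 for EXLA1 and 1.19 for EXPB1. A larger span was found for 0.07% of all probes in the case of EXPA8 and for 14.0% in the case of EXPB1. The dye term of the model passed for none of the 5 members (limma adjusted p 0.191 to 0.805), while it passed for 16.2% of all probes.

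Of the other 6 measured genes of the family, 4 passed the test against the reference, each in sections below 3 cm of 10 cm stems. In 2-4 cm EXPA7 and EXPB4 missed the threshold by default and passed it under 4 and 3 alternatives. EXPA7 and EXPA18, alpha-expansins known from root hairs, were below the reference in the lower stem. EXPA7 had log2 ratios of -0.97, -1.10, -0.17 and -0.89 in 5-7 cm and -1.30, -1.23, -1.20 and -0.85 in 7-9 cm. Its means of -0.78 and -1.14 were lower than the reference (limma adjusted p = 0.000141 and 1.26e-06), and all arrays of both sections were below 0. Within settings 63 and 60 the EXPA7 mean of 5-7 cm was -0.53 and missed the threshold (adjusted p = 0.172), against -1.04 within 62 and 60. EXPA18 was lower in 3-5, 5-7 and 7-9 cm, with means of -0.51, -0.57 and -0.41 (adjusted p = 0.00423, 0.00186 and 0.0177). The last missed the threshold without 7-9 cm replicate 3 (-0.26, adjusted p = 0.182). Within settings 62 and 60 and within 63 and 60, EXPA18 missed it in 5-7 cm (-0.41 and -0.73, adjusted p = 0.177 and 0.0581) and in 7-9 cm (-0.35 and -0.47, adjusted p = 0.249 and 0.141).

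Among the beta-expansins, EXPB3 was lower in 5-7 and 7-9 cm, with means of -0.38 and -0.66 (limma adjusted p = 0.0162 and 0.000155), and the former missed the threshold without 5-7 cm replicate 1 or 4. Within settings 63 and 60 the EXPB3 means were -0.32 and -0.62 and neither passed (adjusted p = 0.26 and 0.0578), and within 62 and 60 the 5-7 cm mean of -0.44 missed the threshold too (adjusted p = 0.171). EXPB4 was higher instead. Its ratios were 0.41, 0.38, 0.70 and 1.27 in 3-5 cm and 0.76, 0.67, 0.50 and 0.23 in 7-9 cm, with means of 0.69 and 0.54 above the reference (adjusted p = 0.000278 and 0.00259). Its mean of 0.36 in 5-7 cm (adjusted p = 0.037) missed the threshold in 12 alternatives, among them the removal of 5-7 cm replicate 1, 2 or 4. With the 3 arrays of conflicting dye labels left out, EXPB4 in 7-9 cm was 0.46 (adjusted p = 0.116), and within settings 63 and 60 it was 0.36 (adjusted p = 0.198).

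EXPA4, an alpha-expansin, and EXPB2, a beta-expansin, were called in none of the 15 comparisons by limma, with 0 of 15 at an unadjusted p below 0.05 too. EXPA4 was noisy, with an SD of 1.21 in the 2-4 cm section, where replicate 2 was at -2.30 and the other arrays lay between -0.01 and 0.20. EXPB2 section means ran from -0.02 to 0.37, and the 95% interval of the latter, in 7-9 cm, was -0.01 to 0.74. Without 7-9 cm replicate 1 the EXPB2 mean there was 0.57 and passed (adjusted p = 0.0255). Over the 11 family genes, 6 were lower and 1 was higher in 5-7 cm, against 20.2% and 19.7% of all probes, and 7 were lower and 1 was higher in 7-9 cm, against 21.7% and 21.7%. The family's median was -0.38 and -0.66 in these sections, beside 0.02 and 0.01 over all probes.

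**Figure D4:**
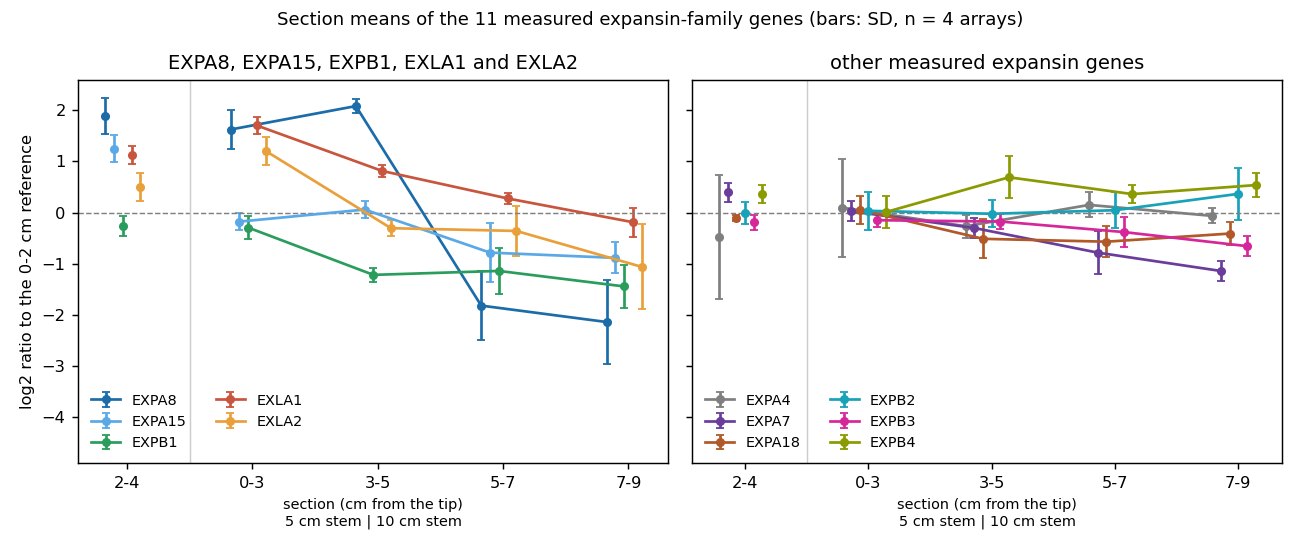
Section means ± SD (4 arrays) of the log2 ratio to the 0-2 cm reference for the 5 members (left) and the other 6 measured expansin genes (right), with lines joining the sections of 10 cm stems. EXPA8 covers the widest range, and EXPB4 and EXPB2 have means above 0 in both lower sections, those of EXPB2 not past the test.

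For each member the 3 genes with the most similar profile over the 20 arrays were drawn from 1528 probes. These had 1 named gene, complete values and section means spanning at least 1. The nearest to EXPA8 were AT1G11920, AT3G16370 and AT1G33490 with Pearson correlations of 0.959, 0.955 and 0.936. AT1G11920 had section means of 0.74, 1.27, 1.68, -0.76 and -1.41 in 0-3, 2-4, 3-5, 5-7 and 7-9 cm. AT3G16370 shared the drop below 5 cm, from -0.29 to -3.47, but was not above the reference before it. Nearest to EXPA15 were AT3G02930 (0.872), AT2G21830 (0.844) and BGLU44, a beta-glucosidase (0.844). Nearest to EXPB1 were AT1G15290 (0.941), AT2G41750 (0.934) and AT5G36710 (0.920).

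The expansin-like genes were matched by genes with larger changes at the base. Nearest to EXLA1 were AT2G42220 (0.935), AT1G68960 (0.927) and AT1G49980 (0.924), with 7-9 cm means of -2.71, -2.07 and -1.47 beside -0.19 for EXLA1. Nearest to EXLA2 were AT1G63290 (0.942), AT1G12570 (0.888) and HCF101, a chloroplast iron-sulphur protein (0.883). These correlations describe likeness of profile over arrays that share the sections and the reference.

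Other wall genes that act in growth were looked up by name. Of the xyloglucan endotransglucosylase/hydrolases, which cut and rejoin the xyloglucan chains between cellulose fibrils, 5 had tested probes. XTH33 was higher in 0-3, 2-4 and 3-5 cm at 1.64, 2.31 and 2.07 and lower in 7-9 cm at -0.93 (limma adjusted p at most 0.000151). It fell between 3-5 and 5-7 cm by 1.93 on the log2 scale (adjusted p = 3.85e-05), the step at which EXPA8 fell too. EXGT-A3 instead was higher in 3-5, 5-7 and 7-9 cm, at 1.29, 0.91 and 0.93. Within settings 63 and 60 the EXGT-A3 values of 5-7 and 7-9 cm were 0.55 and 0.53 and missed the threshold (adjusted p = 0.106 and 0.102), against 1.28 and 1.33 within 62 and 60. The list counted 1 higher gene in 0-3 cm, 1 in 2-4 cm, 3 in 3-5 cm, 2 higher and 1 lower in 5-7 cm, and 2 higher and 2 lower in 7-9 cm. Of all probes, 2.18%, 6.63% and 19.9% were higher in the first 3 of these sections, and 19.7% to 21.7% were called in each direction in the lower 2, about 1 gene of 5. XTH16 in 3-5 cm missed the threshold without replicate 4 (0.27, adjusted p = 0.19). The list's medians were 0.21, 0.23, 0.52, 0.14 and 0.24 in these sections, beside -0.02 to 0.02 over all probes. COB, which orients cellulose fibrils and was the single tested gene of the cellulose synthase and COBRA list, was called in no comparison with the reference (0.02 to 0.25). None of the named proton pumps, small auxin up RNAs or aquaporins was matched to a tested single-gene probe.

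Markers of cell types changed along the same sections. For dividing cells, 2 of the 6 listed markers had probes, AUR2, an Aurora kinase of mitosis, and HTB2, a histone H2B. AUR2 gave -0.90, -0.95, -1.86, -1.77 and -2.04 in 0-3, 2-4, 3-5, 5-7 and 7-9 cm, and HTB2 gave -0.32, -0.85, -2.03, -1.95 and -1.88. Both were already low in 3-5 cm, where EXPB1 was also below the reference and EXPA8 was above it. GUT2, which builds the xylan of secondary walls and was the single measured gene of 11 listed for xylem and fibres, ran from -0.37 to 0.08 and passed no test against the reference. LHCB4.3, 1 of 5 listed genes of green cortex, gave -0.46, -0.24, -0.87, -1.30 and -1.73. OPS, 1 of 3 listed phloem genes, had a pair of probes that disagreed in size, at -4.19 and -0.46 in 7-9 cm. No epidermis marker of 5 listed had a probe. These genes are ratios to the reference and carry no level. The part of cell type shifts in the expansin ratios was not tested.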

How the data were processed

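RNA of stem sections was measured on 20 spotted arrays of 2 colours. The authors deposited log ratios, used here as log2 values; per the labels' titles they are section over 0-2 cm reference. How spots were corrected, normalized and quantified is not given in the sources used here. Probes were named through GEO's platform annotation and the TAIR10.1 RefSeq table, used for names only. Sequences of the genes were not used here.

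Probes measured on at least 3 of 4 arrays of every section were fitted with limma 3.58.1 in R 4.3.3: a mean for each section and a dye term on all 20 arrays (14 residual degrees of freedom), then eBayes. Sections were tested against the reference (mean against 0) and against each other, with a threshold of 0.05. The fit was tested on simulated data. The number of arrays limits the precision. For 3-5 cm replicate 1 the title was followed where the source name gives a 5 cm stem. Deviations from the section mean, from which the dye was not removed, were correlated between arrays of the same number. Every correlation was above 0.1 between 2-4 and 3-5 cm (0.108 to 0.194) and between 5-7 and 7-9 cm (0.240 to 0.454). In no other pair of sections did all of them pass 0.1. In all pairs of sections, arrays that shared the dye correlated positively, and arrays of opposite dye negatively (-0.259 to -0.104). Same-numbered arrays of 5-7 and 7-9 cm also share the scanner setting. The parts of dye, setting and replicate in these correlations were not tested. The fit with replicate number as a block is an alternative. The dye was taken from the source name, which differs from the description on 3 arrays. By the description every 7-9 cm array has the section in Cy3, so that section has no dye swap under those labels. Without the 3 arrays, 7-9 cm keeps replicates 1 and 3, both Cy3.

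The members and lists were chosen with earlier results of these data known. Named genes were the members, the other measured expansin genes, the 3 genes most correlated with each member, and at most 2 called genes of each wall list and comparison.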

Additional observations from a re-analysis of the deposited data

Results flagged for a closer look

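EXPA15 on 3-5 cm replicate 2 had a log2 ratio of -0.20, while the other 3 arrays of that section lay between 0.14 and 0.15. The gap took up 0.956 of the range of the group, so the array stood out from 3 others that were close together. Chance marks about 1 in 20 groups in this way, and 25 groups of 4 arrays were looked at.

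The step from the top section to the next differed between stem lengths for EXLA1, by -2.02 ± 0.214 (SE), and for EXLA2, by -2.01 ± 0.365 (SE), as 10 cm minus 5 cm stems in the limma fit. The spread of the reference, which is the top section of 5 cm stems, is left out of these values. In the longer stems both genes were lower in the second section than in the top one. In the shorter stems EXLA1 was higher there, while EXLA2 at 0.50 did not pass the test (adjusted p = 0.132). Without 0-3 cm replicates 1 and 3 the differences were -2.03 for EXLA1 (limma adjusted p = 0.000665) and -2.08 for EXLA2 (adjusted p = 0.0347).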

How the results depend on the processing

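The members were recomputed under 39 alternatives, 1 of them chosen after seeing the data, which gave 3005 values for 80 results. Of the 47 called results 36 were called under every alternative run for them, none reversed, and 22 values of 9 results that were never called changed sign. The count of members called in 2-4 over 0-3 cm, 1 by default, was 0 without 0-3 cm replicates 1 and 3. In 5-7 over 3-5 cm it was 1 in place of 2 without the dye term, with only the arrays compared, with centring and scaling, with replicates 1-2 and 3-4 as random blocks, with dyes from the description, without the 3 arrays of conflicting dye and without the 3 arrays in steps of 0.1. Leaving out single arrays gave 1 to 2 there. EXPA15 was the member lost in each of these. The count was 3 with block medians subtracted or with replicates 1-3 and 2-4 as random blocks, through EXLA1. For the difference between stem lengths the count of 2 became 4 with only the arrays compared, centring and scaling, array weights or replicates 1-3 and 2-4 as random blocks. It became 5 with scanner setting as a block (settings 63 and 60 against 62 and 60), which places the settings of 2-4 and 3-5 cm midway by choice. Leaving out single arrays gave 2 to 4. The cause of these changes was not tested.

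Over all pairs of sections, deviations of same-numbered arrays correlated from -0.259 to 0.454, above 0.1 in 20 of 40 pairs. The correlation was positive where the arrays shared the dye and negative where they did not. Between 2-4 and 3-5 cm and between 5-7 and 7-9 cm all of these correlations were above 0.1. With the replicate block no member call changed there, and the calls over all probes were 2851 in place of 2893 and 1 in place of 1. In that fit the member count was 3 in place of 2 for the difference between stem lengths, through EXPA8, and equal to the default in the other 15 comparisons.

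Counts over all probes varied more, and their lowest and highest values follow, with the default in parentheses. Against the reference they were 335 and 2822 in 0-3 cm (892), 1991 and 6202 in 2-4 cm (3478), 5071 and 11985 in 5-7 cm (10280), and 6651 and 12707 in 7-9 cm (11163). Against 0-3 cm they were 20 and 476 in 2-4 cm (67), 2508 and 6090 in 3-5 cm (4378), 2669 and 6482 in 5-7 cm (4647), and 2823 and 7387 in 7-9 cm (5600). Against 2-4 cm they were 1227 and 4632 in 3-5 cm (2893), 2103 and 5456 in 5-7 cm (3745), and 2554 and 6519 in 7-9 cm (4772). Against 3-5 cm they were 769 and 2915 in 5-7 cm (1517), and 973 and 3823 in 7-9 cm (2283). For 7-9 over 5-7 cm they were 0 and 9 (1), and for the difference between stem lengths 232 and 1565 (626). The last was 348 higher and 278 lower by default, and 428 higher and 596 lower with arrays centred and scaled. Only 3-5 cm over the reference stayed within 1.5 times of its default. With no spot intensities, how far the probes lay above background is unknown.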
